A study of Mus musculus with 6 samples.

Results

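Complement C1q is built from the products of C1qa, C1qb and C1qc, and these 3 genes, of 55487 in the deposited count table, were followed in mouse macrophages. They were taken by symbol, because their transcripts were already known to be higher in 1 of the groups. The difference between the groups is therefore described here and not tested on them. The macrophages came from sorted bone marrow cells, either the cells the labels call TpMos or mature Ly6Chi monocytes, kept for 7 days in RPMI medium with serum and the growth factor CSF-1, and each group held 3 libraries. The strain, sex and age of the mice and the CSF-1 concentration of each sample are not given in the sources used here, nor is it said whether the libraries of a group came from separate animals or cultures. Every p-value below therefore measures the spread between libraries, which may be technical.

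C1q is the recognition part of the first component of complement. Its A, B and C chains, each with a collagen-like stalk and a globular C1q domain, combine in equal numbers into a molecule shaped like a bunch of tulips, which binds antibody on surfaces and material exposed on dying cells. Bound C1q activates the proteases C1r and C1s, and these start the classical pathway by cleaving C4 and C2, which leads to cleavage of C3. Most complement proteins are made in the liver, but macrophages and related cells are the main source of C1q, and the protein also helps them take up dead cells.

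The chains lie side by side on the minus strand of chromosome 4 (GRCm38) in a cluster of 18.7 kb, from 136880129 to 136898803. C1qb (ENSMUSG00000036905.8) runs from 136880129 to 136886187, C1qc (ENSMUSG00000036896.5) from 136889804 to 136893065 and C1qa (ENSMUSG00000036887.5) from 136895917 to 136898803, with 3616 and 2851 bases between them. Each has a coding transcript of 3 exons, of 1088 bases for C1qb, 1203 for C1qc and 1040 for C1qa. For C1qc the annotation adds a second, noncoding transcript, which brings the merged exon length used for counting to 1931 bases. No other gene in the table had exons on those of the chains, and of the 51-base windows of their transcripts (990 in C1qa, 1038 in C1qb and 1880 in C1qc) 0 occurred in transcripts of any other gene in GENCODE M21. Reads as long as those sequenced could thus be told apart between the chains by their transcripts.

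The sequences around the start sites of C1qb and C1qc are shown because the chains were high and low in the same libraries. The share of all genes with that pattern was not counted. The RefSeq promoter table (GRCm38.p6) matched 2 of the 3 chains, with 250 bases before to 50 after the start. C1qb is taken from chr4:136886151-136886450 and C1qc from chr4:136892865-136893164, both on the minus strand. The C1qc gene used for counting reaches to 136893065, so its start and that of the promoter table differ. Much of the C1qc window before the start thus lies inside the counted gene. Capitals mark 3 short motifs searched on both strands: GAGGAA, the core bound by PU.1, a factor of myeloid cells, and TGCTGA and GCTGAC, overlapping parts of the site TGCTGAC bound by large MAF factors.
C1qb: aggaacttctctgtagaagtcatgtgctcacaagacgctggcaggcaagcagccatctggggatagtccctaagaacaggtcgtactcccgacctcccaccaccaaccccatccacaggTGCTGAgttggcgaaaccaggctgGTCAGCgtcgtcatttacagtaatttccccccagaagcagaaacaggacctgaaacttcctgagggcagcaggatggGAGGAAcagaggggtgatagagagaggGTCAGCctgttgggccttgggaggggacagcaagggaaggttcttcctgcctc
C1qc: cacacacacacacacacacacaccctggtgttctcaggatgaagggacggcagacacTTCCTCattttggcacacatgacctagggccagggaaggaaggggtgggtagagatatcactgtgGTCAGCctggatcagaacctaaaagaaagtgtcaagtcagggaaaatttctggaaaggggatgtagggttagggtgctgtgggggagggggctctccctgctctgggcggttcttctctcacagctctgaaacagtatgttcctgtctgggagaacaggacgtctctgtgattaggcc

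GAGGAA occurred in both windows, on the gene's strand in C1qb and on the other strand in C1qc, and in 28.3% of the 32851 promoter windows of the table. GCTGAC, which was added after the windows had been seen, occurred in both as GTCAGC on the other strand, 2 times in C1qb and once in C1qc, and in 15.7% of all windows. TGCTGA occurred in C1qb and in 19.5% of all windows. The whole site TGCTGAC was in neither window and in 4.67% of all. Neither window held TATAAA (13.6% of all windows), TGACTCA, the AP-1 site (5.20%) or the interferon response core searched (3.44%). The longest run the windows shared was GGTCAGCCTG, which contains GTCAGC and was found in 49 windows or 0.149% of the table. It was picked as the longest over all positions and both strands. Its share of windows therefore does not tell how unusual such sharing is, which was not tested. A match is a description of letters and not of binding.

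All 3 chains stood higher in TpMo-derived macrophages. Levels are given in CPM, a gene's counts scaled to a common library size after TMM adjustment of the totals. C1qb stood at 2157, 1754 and 2226 CPM in TpMo-derived replicates 1, 2 and 3, and at 451, 431 and 498 CPM in Ly6Chi-derived replicates 1, 2 and 3. C1qc stood at 1398, 1126 and 1433 CPM against 258, 278 and 341 CPM. C1qa stood at 381, 267 and 429 CPM against 36.6, 38.0 and 44.6 CPM. The groups did not overlap for any chain, and TpMo-derived replicate 2 was the lowest library of its group for each of them, whereas Ly6Chi-derived replicate 3 was the highest of its group. Over all genes tested, 15.3% did not overlap with TpMo-derived libraries higher (30.5% in either direction), from which nothing is read for chains picked on this difference.

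**Figure D1:**
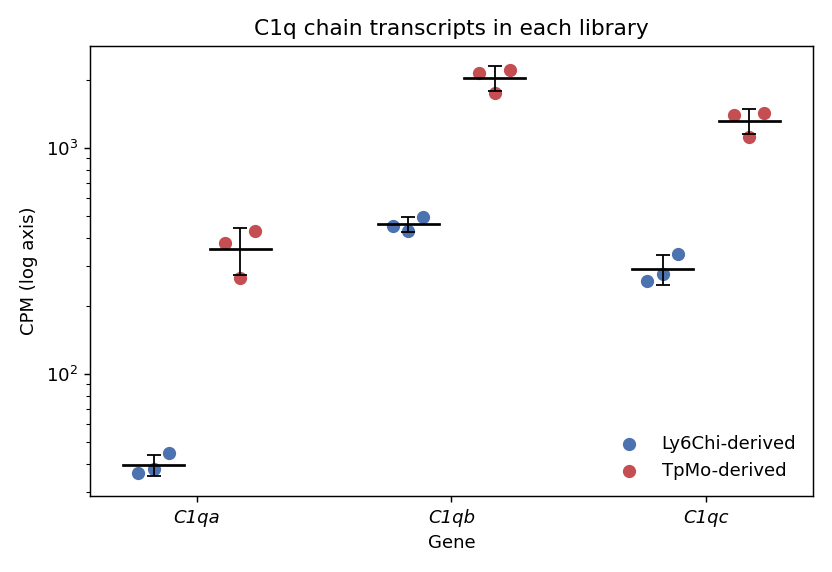
Level of each C1q chain in CPM (log axis) in the 3 Ly6Chi-derived and the 3 TpMo-derived libraries. Points are libraries, horizontal lines the group mean and bars the SD; for every chain all TpMo-derived points lie above all Ly6Chi-derived ones, and the gap is widest for C1qa.

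The difference was about the same for the B and C chains and wider for the A chain. C1qb averaged 2046 ± 255 CPM (SD, n = 3) against 460 ± 34.3 CPM, a 4.45-fold difference with a log2 fold change of 2.15 ± 0.09 (SE). C1qc averaged 1319 ± 168 against 292 ± 43.3 CPM, 4.51-fold, with a log2 fold change of 2.17 ± 0.12 (SE). C1qa averaged 359 ± 83.3 against 39.7 ± 4.28 CPM, 9.03-fold, with a log2 fold change of 3.17 ± 0.17 (SE). Even the lowest TpMo-derived library exceeded the highest Ly6Chi-derived one 3.52-fold for C1qb, 3.30-fold for C1qc and 5.98-fold for C1qa. All 3 chains had a fitted difference of at least 4-fold, which 1.73% of all genes tested reached in that direction. Nothing is read from this share either, because the chains were picked on this difference. Together the chains took 0.312 to 0.396% of all counts of a TpMo-derived library, against 0.0754 to 0.0893% of a Ly6Chi-derived one. In bulk RNA, fewer cells that express a gene and less of its RNA per cell cannot be told apart.

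Divided by gene length, so that genes can be compared, the chains were among the highest transcripts of TpMo-derived macrophages. Ranked by CPM per kilobase among the 13140 genes tested, C1qb was 16th to 18th in TpMo-derived and 61st to 71st in Ly6Chi-derived libraries. C1qc was 37th to 51st against 190th to 264th. Levels and ranks of C1qc per kilobase use its merged exon length of 1931 bases. Those with its coding transcript of 1203 bases were not computed. C1qa was 81st to 123rd against 1010th to 1217th, the widest shift of the 3 chains. In both groups the order per length was C1qb, C1qc, C1qa, and neighbouring chains in that order did not overlap within a group. C1qb stood at 1880 ± 234 CPM per kilobase in TpMo-derived macrophages, C1qc at 683 ± 87.1 and C1qa at 345 ± 80.1. In Ly6Chi-derived macrophages the same levels were 423 ± 31.5, 151 ± 22.4 and 38.2 ± 4.12 CPM per kilobase.

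The counts of the chains were thus not equal per length, and the share of the A chain differed between the groups. Whether transcripts of the 3 genes were captured equally well was not measured. C1qa made up 11.9, 10.5 and 12.9% of the C1q counts per kilobase in TpMo-derived replicates 1, 2 and 3, and 6.03, 6.34 and 6.34% in Ly6Chi-derived replicates 1, 2 and 3. These shares did not overlap. C1qb made up 64.7% ± 0.935 (SD, n = 3) in TpMo-derived and 69.1% ± 1.77 in Ly6Chi-derived macrophages, also without overlap. C1qc made up 23.5% ± 0.301 against 24.6% ± 1.61, with overlap. The ratio of C1qb to C1qc per merged exon length averaged 2.75 ± 0.014 against 2.82 ± 0.261. It ran from 2.74 to 2.77 in TpMo-derived and from 2.59 to 3.10 in Ly6Chi-derived libraries. The ratio of C1qb to C1qa was 5.55 ± 0.672 in TpMo-derived and 11.1 ± 0.596 in Ly6Chi-derived macrophages. With the coding transcripts as lengths in place of the merged exons, the C1qc shares became 33.0 and 34.4%, the C1qa shares 10.3 and 5.43%, and the order of the chains was the same.

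**Figure D2:**
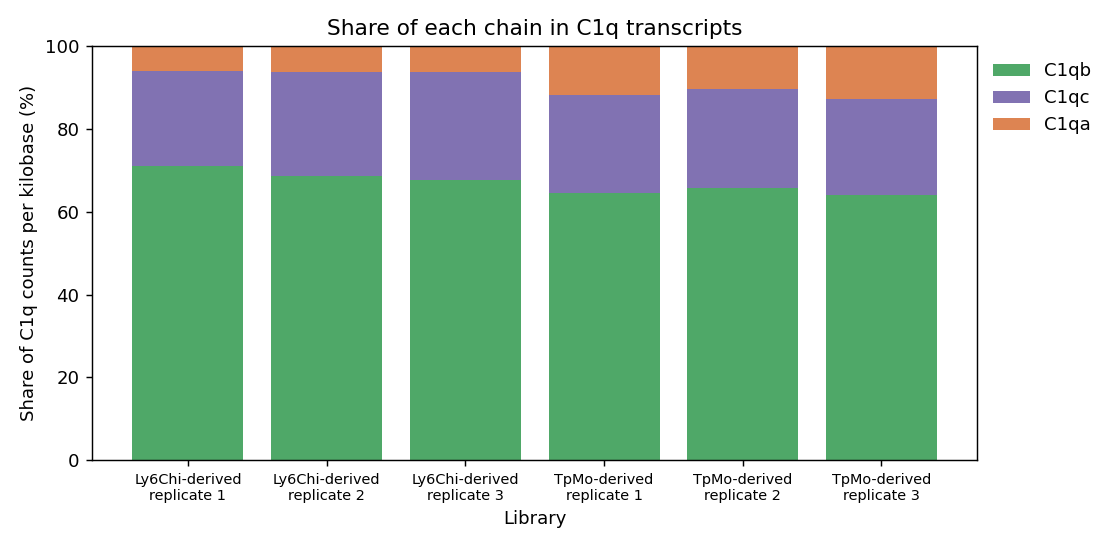
Share of each chain in the summed C1q counts per kilobase (%), with 1 bar per library. C1qb takes most of every bar, and C1qa takes 10.5 to 12.9% in the TpMo-derived libraries against 6.03 to 6.34% in the Ly6Chi-derived ones.

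The libraries held 23765773 to 33042094 counts, and the groups overlapped in depth. A floor of 3 counts is 0.0921 to 0.130 CPM of a library and covers counting error only. Mitochondrial genes took 1.45 to 1.51% of the counts of each TpMo-derived library, against 1.20 to 1.35% for Ly6Chi-derived ones, and their part in the C1q difference was not tested. Of 8 macrophage markers all were present and tested. The F4/80 gene Adgre1, the CSF-1 receptor gene Csf1r, the Fc receptor gene Fcgr1 and the mannose receptor gene Mrc1 rose, with log2 fold changes of 1.20, 0.51, 1.96 and 1.34, and the integrin gene Itgam fell by 0.31 (edgeR quasi-likelihood test, adjusted p under 0.05). Itgam lost its call without 5 of the 6 libraries in turn (adjusted p 0.0871 to 0.115), the exception being TpMo-derived replicate 3. Cd68, Lyz2 and Mertk, at 0.13, 0.14 and -0.14, did not pass. The median over the 8 markers was 0.32, against 0.0054 over all genes tested, of which 6.54% rose and 5.79% fell.

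Of 46 markers of other cell types, 26 had no count in any library. The 8 neutrophil markers summed to 1.10 to 2.75 CPM in TpMo-derived libraries against 0.218 to 1.49 CPM in the others, the 7 dendritic cell markers to 0.184 to 0.781 against 0.403 to 0.763 CPM, the 7 T and NK cell markers to 0.0 against up to 1.35 CPM, and the 6 markers of mast cells and basophils to 2.43 to 4.97 against 1.76 to 4.65 CPM. The last of these held counts of Kit and Gata2 alone. Kit held 80, 82 and 22 counts against 12, 0 and 0, without overlap (log2 fold change 3.87, adjusted p = 0.115, edgeR), and Gata2, with 0, 52 and 34 against 116, 48 and 68 counts, overlapped (log2 fold change -1.25). The 5 B cell markers summed to 7.28 to 14.1 against 1.71 to 7.87 CPM, with Cd79a and Pax5 at 0. Most of the sum in TpMo-derived libraries was Ighm, at 9.76, 5.12 and 4.77 against 0.399, 1.46 and 3.61 CPM, without overlap (log2 fold change 1.84, adjusted p = 0.113, edgeR), and the rest was nearly all Cd79b, which overlapped. Markers of the erythroid and megakaryocyte lineages summed to 117 to 246 against 30.2 to 44.5 CPM and so moved with C1q. Nearly all of this was Pf4, a chemokine gene that macrophages also express, while 3 of the 6, Gp9 and the globin genes Hba-a1 and Hbb-bs, were at 0. Pf4 stood at 228, 117 and 246 against 30.0, 42.4 and 44.5 CPM (adjusted p = 3.1e-04, edgeR). Stromal and endothelial markers summed to 29.2 to 33.6 against 7.50 to 24.2 CPM, nearly all Kdr, with the collagen genes Col1a1, Col1a2 and Col3a1 and Pdgfra at 0. Kdr stood at 28.6, 28.4 and 32.9 against 23.9, 7.50 and 12.7 CPM, without overlap (log2 fold change 1.03, adjusted p = 0.0878, edgeR). Pecam1 was called higher near the floor, with 38, 21 and 16 against 0, 0 and 2 counts (adjusted p = 0.036, edgeR). The part of these markers in the C1q difference was not tested.

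Of the genes around the cluster, most had no counts and none was called. Within 250 kb on either side the table lists 7 other genes, of which 3 code for protein. The receptor tyrosine kinase genes Ephb2 and Epha8 had no count in any library, which allows at most 0.0921 to 0.130 CPM, and 5 of the 7 neighbours were at 0. Gm23834, a small nucleolar RNA gene, held 4 counts in TpMo-derived replicate 1 and 0 in the others and was not tested. Zbtb40, a zinc finger gene whose nearest end is 80.9 kb from the cluster, was the only neighbour that could be tested, at 10.7 ± 2.30 CPM (n = 3) against 9.34 ± 1.25 CPM. It did not pass (log2 fold change 0.19 ± 0.26 SE, adjusted p = 0.737 in the edgeR quasi-likelihood test), where 12.3% of all genes tested did, and 0 of the 7 neighbours were called. The count was also 0 with DESeq2, with limma-voom and at an unadjusted p under 0.05 in edgeR.

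**Figure D3:**
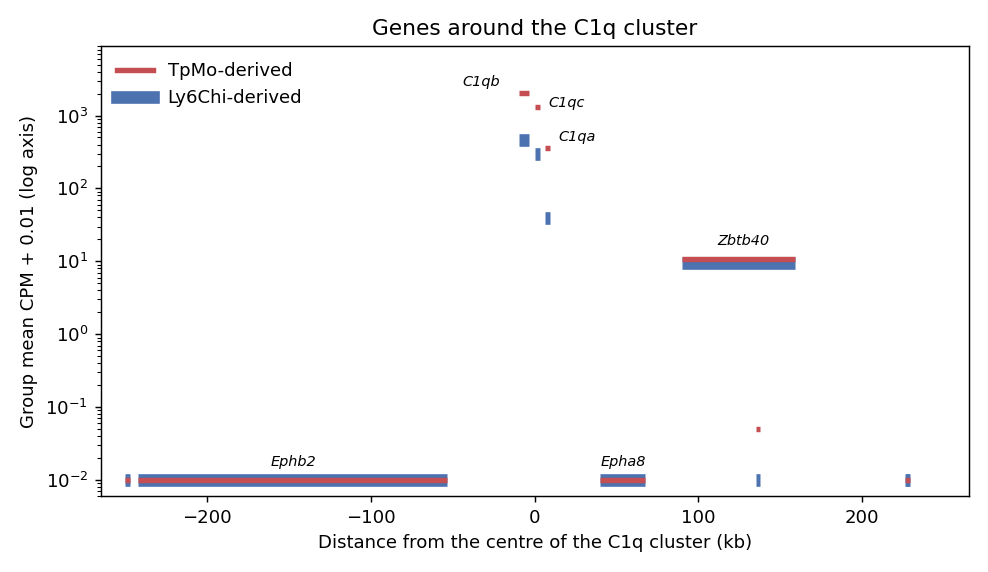
Group mean CPM plus 0.01 (log axis) of the genes within 250 kb of the C1q cluster, against distance from its centre in kb. Bars span each gene's body (genes under 2.5 kb are drawn at 2.5 kb), thick blue bars are Ly6Chi-derived and thin red bars TpMo-derived macrophages, and genes without counts lie at the bottom; the chains stand above every neighbour and Zbtb40 lies at about the same level in both groups.

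The proteases and the inhibitor that work with C1q were low or without counts. C1ra, the gene of the protease C1r, was the only one of the 5 genes that could be tested, at 4.31 ± 0.422 CPM (n = 3) in TpMo-derived and 5.46 ± 1.92 CPM in Ly6Chi-derived macrophages. It did not pass (log2 fold change -0.34 ± 0.35 SE, adjusted p = 0.639, edgeR quasi-likelihood test). C1s1 and C1s2, the genes of the protease C1s, and Serping1, the gene of the C1 inhibitor, had no count in any library. C1rb held 1 to 3 counts in each library. C1ra and C1rb are near copies of each other, as are C1s1 and C1s2, and reads with several positions were not counted, so low or zero counts of these genes may understate them. How far they do was not tested.

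Of the 6 genes that follow C1 in the classical pathway, C3 rose. C3, the central component whose cleavage opsonises targets, stood at 33.7, 38.1 and 49.9 CPM in TpMo-derived and at 3.49, 6.15 and 9.39 CPM in Ly6Chi-derived replicates 1, 2 and 3. The groups did not overlap, and the log2 fold change was 2.67 ± 0.33 (SE, adjusted p = 5.9e-04, edgeR quasi-likelihood test), where 6.54% of all genes tested rose and 5.79% fell. C4b, which C1s cleaves, held 52, 9 and 6 counts in the TpMo-derived libraries and 0 in each Ly6Chi-derived one, too few for the test. C4a, a near copy of C4b and so open to the same loss of reads, held 50, 3 and 0 counts against 0, 27 and 0. C2 held at most 3 counts in any library, Hc, the gene of C5, at most 2, and C4bp had none. C4b was called higher with no count filter and with DESeq2 (adjusted p = 0.0326 and 0.00457).

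The genes of receptors and binding proteins of C1q moved in both directions. Of 11, 9 were tested, 2 rose and 1 fell, where 6.54% of all genes tested rose and 5.79% fell, and the median log2 fold change was -0.12 against 0.0054 over all genes tested. C1qbp, which encodes a mainly mitochondrial protein that binds the globular heads of C1q, rose from 93.8 ± 7.94 to 145 ± 7.49 CPM (n = 3, log2 fold change 0.63 ± 0.10 SE, adjusted p = 0.0021, edgeR). Cd93, a surface lectin first described as a C1q receptor, rose from 359 ± 21.9 to 453 ± 23.5 CPM (log2 fold change 0.33 ± 0.07 SE, adjusted p = 0.012, edgeR). That call was lost when replicate 3 of either group was left out, with an adjusted p of 0.0559 for the TpMo-derived and 0.0602 for the Ly6Chi-derived library. The human protein of Cd33 is an inhibitory receptor that binds C1q, and whether the mouse protein acts in this way was not examined. Cd33 fell from 58.0, 65.0 and 63.6 CPM in Ly6Chi-derived to 5.13, 7.91 and 4.30 CPM in TpMo-derived replicates 1, 2 and 3 (log2 fold change -3.43 ± 0.23 SE, adjusted p = 1.8e-05, edgeR). Lair1, whose human protein is another inhibitory receptor that binds C1q, missed the threshold at 404 ± 44.7 against 478 ± 17.8 CPM (adjusted p = 0.0941, edgeR). It was called lower with 4 alternative settings (adjusted p 0.0412 to 0.0475). The endocytic receptor gene Lrp1, which held the most counts of the list, at 940 ± 63.0 against 1021 ± 31.7 CPM, and the chaperone gene Calr, at 264 ± 27.9 against 249 ± 4.58 CPM, did not pass.

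The stalk of C1q is hydroxylated and glycosylated by the enzymes that also modify collagens. Of 10 genes of this kind 7 were tested, 2 rose and 1 fell, beside 6.54% and 5.79% of all genes tested, with a median log2 fold change of 0.24. Plod1, a lysyl hydroxylase, stood at 483, 402 and 496 CPM in TpMo-derived and at 288, 321 and 291 CPM in Ly6Chi-derived replicates 1, 2 and 3, without overlap (log2 fold change 0.62 ± 0.09 SE, adjusted p = 0.0014, edgeR). P4hb, the common subunit of the prolyl hydroxylases and a general disulfide isomerase, rose from 724 ± 39.0 to 913 ± 16.2 CPM (n = 3, log2 fold change 0.33 ± 0.06 SE, adjusted p = 0.0045, edgeR). The catalytic subunits differed. P4ha2 fell from 53.5 ± 7.13 to 21.9 ± 5.62 CPM (log2 fold change -1.29 ± 0.20 SE, adjusted p = 0.0026, edgeR), whereas P4ha1, at 262 ± 16.0 against 222 ± 12.2 CPM, missed the threshold (adjusted p = 0.0737, edgeR) and was called with DESeq2 and without TpMo-derived replicate 2 (adjusted p = 0.0322 and 0.0479). Serpinh1, the gene of the collagen chaperone HSP47, and P4ha3 had no counts.

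Of 7 transcription factor genes that have been linked to C1q expression or to its lineage, 3 rose, beside 6.54% of all genes tested, with a median log2 fold change of 0.37. In edgeR 0 fell, also at an unadjusted p under 0.05 and with DESeq2 and limma-voom. Maf, the gene of a large MAF factor, rose from 80.5 ± 2.26 to 118 ± 3.78 CPM (n = 3, log2 fold change 0.55 ± 0.09 SE, adjusted p = 0.0026, edgeR). Irf8, a factor of the monocyte lineage, rose by 0.37 ± 0.07 (log2, SE), and the lipid sensor gene Pparg by 0.67 ± 0.19, a call lost with library sizes alone and without 5 of the 6 libraries in turn, the exception being TpMo-derived replicate 3 (adjusted p 0.0515 to 0.155). Spi1, the gene of PU.1, held the most counts of the list, and its 434 ± 13.9 against 387 ± 31.1 CPM missed the threshold (adjusted p = 0.183, edgeR). So did the nuclear receptor genes Nr1h3, Rxra and Ppard, at log2 fold changes of 0.42, -0.39 and -1.81.

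Other genes that encode a C1q domain were mostly silent. Of 28, 21 had no count in any library, among them Adipoq, the gene of the fat cell hormone adiponectin, and 5 were tested. In edgeR 0 rose, also at an unadjusted p under 0.05 and with DESeq2 and limma-voom, and Emilin2, an extracellular matrix glycoprotein gene that held the most counts of the list, fell from 504 ± 67.9 to 349 ± 14.7 CPM (n = 3, log2 fold change -0.53 ± 0.09 SE, adjusted p = 0.0049, edgeR). C1qtnf12, C1qtnf6, Emilin1 and Caprin2 did not pass, so that 1 of the 5 was called, and the median log2 fold change of the 5 was 0.033. Over the 6 lists together, 30 of 67 genes were tested, 8 rose and 3 fell, with a median of 0.13. Over all genes tested 12.3% were called, 6.54% higher and 5.79% lower. The log2 fold changes of the 30 tested genes lay below those of the chains except the 2.67 of C3, which exceeded C1qb and C1qc. In size, the fall of Cd33, at -3.43, exceeded the rise of every chain.

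**Figure D4:**
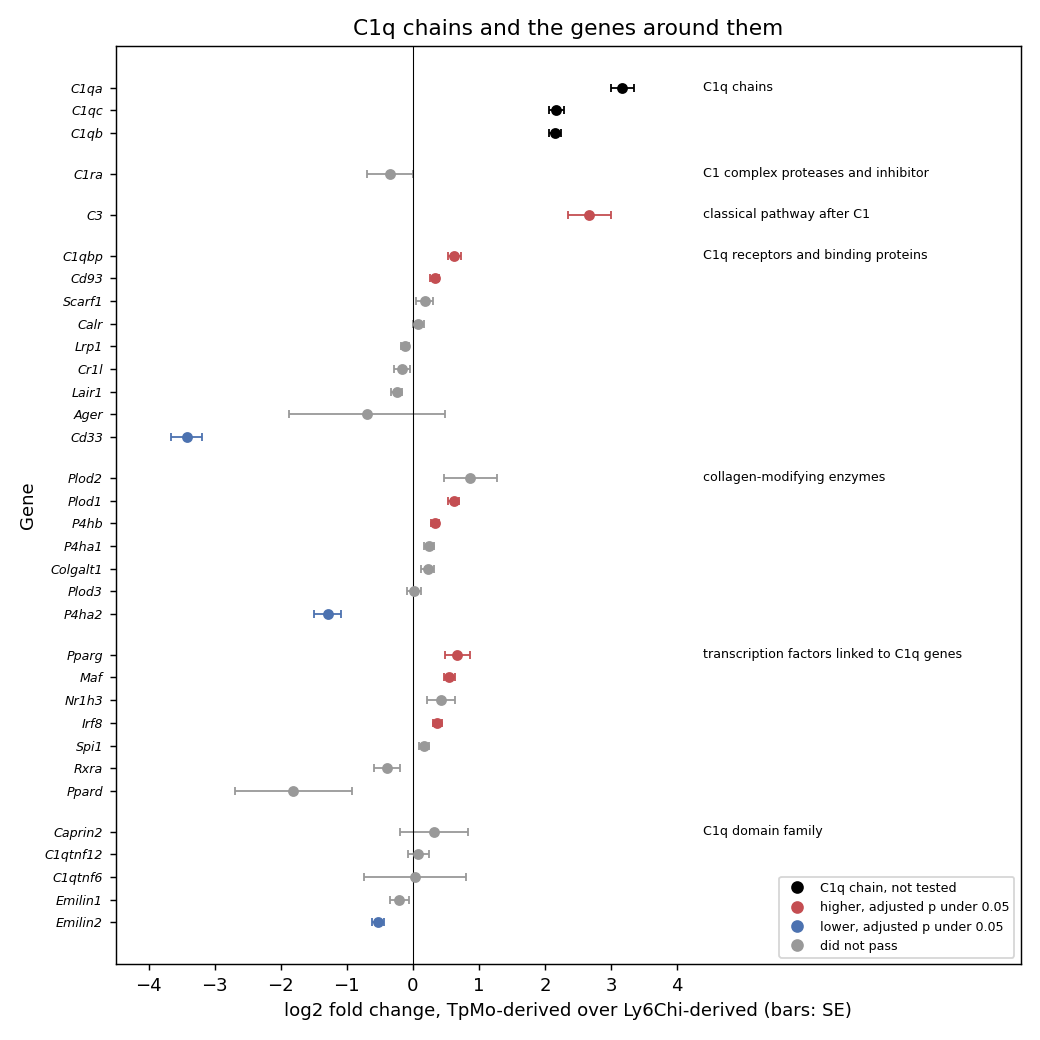
Fitted log2 fold change of TpMo-derived over Ly6Chi-derived macrophages, with SE, for the C1q chains (black, not tested) and the 30 tested genes of the 6 lists. Red genes were higher and blue genes lower at an adjusted p under 0.05, and grey genes did not pass; C3 is the only listed gene in the range of the chains, and Cd33 lies farthest to the left.

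Of the 9236 genes tested whose mean reached 5 CPM, the 8 whose log2 CPM, centred on the gene's mean over the 6 libraries, lay nearest to the mean of the chains were Rtp4, Myo10, Abca1, Siglec1, Xylt2, Tnip3, Trf and Nfxl1. Likeness was the root mean square difference over 6 libraries, which takes in the group difference. It was 0.16 for Rtp4 and 0.24 for Nfxl1, against 0.18 for C1qb, 0.17 for C1qc and 0.34 for C1qa itself, which was 26th. Rtp4, an interferon-induced gene of a receptor chaperone, stood at 188, 161 and 241 CPM in TpMo-derived and at 37.9, 42.5 and 40.6 CPM in Ly6Chi-derived replicates 1, 2 and 3. Myo10, an unconventional myosin gene, averaged 82.2 ± 6.79 against 17.1 ± 1.24 CPM, and Abca1, the gene of a cholesterol exporter, 69.1 ± 14.1 against 15.5 ± 3.69 CPM. Siglec1, the gene of the macrophage lectin sialoadhesin, averaged 96.3 ± 20.4 against 18.6 ± 2.38 CPM. Xylt2, which starts glycosaminoglycan chains, Tnip3, a partner of the NF-kB inhibitor A20, Trf, the gene of the iron carrier transferrin, and Nfxl1, a zinc finger gene, had log2 fold changes of 2.38, 2.04, 2.34 and 2.17. These genes were picked for this pattern, so their differences are a description.

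**Figure D5:**
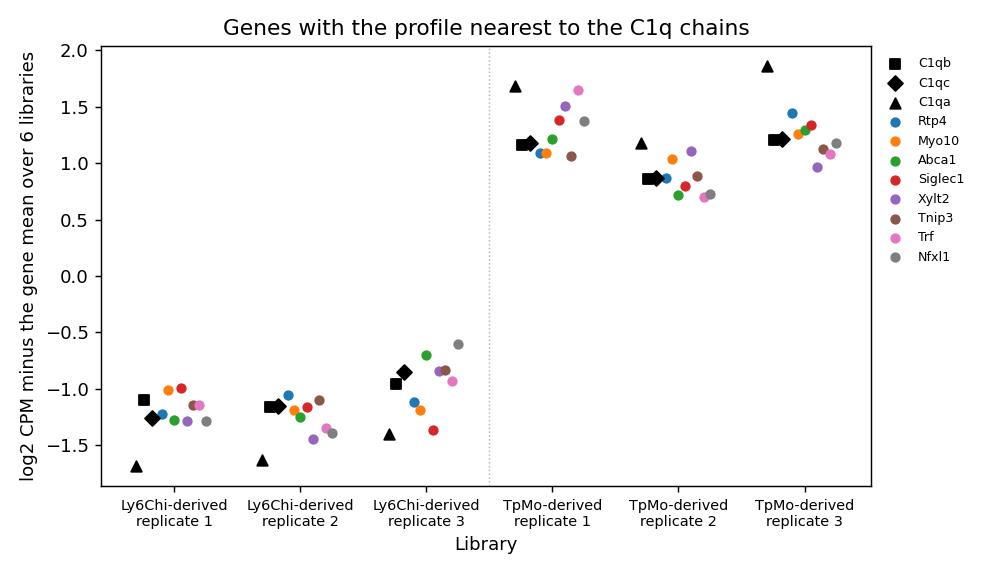
Log2 CPM minus the gene's mean over 6 libraries, for the 3 C1q chains (black) and the 8 genes nearest to them, in each library. C1qb and C1qc lie together among the coloured genes, and C1qa is the lowest gene shown in every Ly6Chi-derived library and the highest in every TpMo-derived one.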

How the data were processed

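The values deposited for the 6 libraries are raw counts of reads over each gene. Per the labels' protocols these were SMART-seq v2 libraries of total RNA sequenced as pairs of 51 cycles. Per the file headers, featureCounts 1.6.3 counted reads over GENCODE M22 exons with no option for pairs, strand or multi-mapped reads, so that by that program's defaults mates were counted separately, strand was ignored and reads on several positions or genes were left out. STAR and GRCm38 are named in the submitters' processing notes. Symbols came from GENCODE M21, which matched 55394 of 55487 identifiers.

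Counts were fitted on the whole table with edgeR 4.0.16 in R 4.3.3: filterByExpr defaults (minimum count 10, minimum total 15), TMM scaling, the robust quasi-likelihood test with no covariate, and Benjamini-Hochberg adjustment over 13140 genes, with a threshold of 0.05. An SE is the log2 fold change divided by the root of its F. Alternatives were DESeq2 1.42.0 (size factors, Wald test), limma 3.58.1 (voom), library sizes alone, other filters, and leaving out each library. The edgeR fit was tested on simulated counts. Replicates were numbered in accession order. Chains, gene lists and tests were chosen with earlier results of these data known. Named genes were the chains, in each list the largest changes each way, the most abundant member and members at 0, the neighbours, and the 8 nearest profiles (log2 CPM with a prior count of 2). Some genes of the lists are not reported here.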

Additional observations from a re-analysis of the deposited data

How the results depend on the processing

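No paired analysis was possible because the labels give no replicate numbers. The chains' log2 fold changes moved by less than the spread between replicates under every alternative run, from 3.03 to 3.35 for C1qa, 2.09 to 2.25 for C1qb and 2.08 to 2.30 for C1qc. Over all genes tested, 1620 were called, 859 higher and 761 lower. With library sizes alone the split was 737 higher and 902 lower, and with DESeq2 1207 and 1176. Leaving out 1 library gave 976 to 1492 calls, 531 to 750 higher and 445 to 742 lower. In the classical pathway after C1, 2 genes were higher in place of 1 with no count filter and with DESeq2, the second being C4b. Among C1q receptors, 2 were lower in place of 1 with library sizes alone, no count filter, at least 5 CPM in 3 libraries and DESeq2, the second being Lair1, and leaving out 1 library gave 1 to 2 higher. The shares of the chains depend on the length used. With the coding transcript, chosen after seeing the data, C1qa, C1qb and C1qc took 10.3, 56.7 and 33.0% in TpMo-derived and 5.43, 60.2 and 34.4% in Ly6Chi-derived macrophages, and with counts not divided by length 9.55, 55.0 and 35.4% against 5.02, 58.2 and 36.8%. Apart from the lengths, the causes of these moves were not tested.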

Other observations

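Within each group the chains deviated in the same direction in each of the 6 libraries. How many other genes did so was not counted, so the pattern is not shown to be particular to the chains. Of the 8 macrophage markers, Adgre1 alone was also lowest of its group in TpMo-derived replicate 2 and highest in Ly6Chi-derived replicate 3. Cd68 shared only the first of these traits, Fcgr1 and Lyz2 only the second, and Csf1r, Mrc1, Mertk and Itgam neither. Among the markers of other cell types, Pf4 and Cd79b shared both. In TpMo-derived replicate 2 the log2 CPM of C1qa, C1qb and C1qc lay 0.40, 0.21 and 0.22 below the group mean, and in replicate 3 it lay 0.29, 0.13 and 0.13 above it. In Ly6Chi-derived replicate 3 it lay 0.17, 0.12 and 0.23 above, and in replicates 1 and 2 of that group all 3 chains lay below.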
